A study of Mus musculus with 12 samples.

Results

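The collagen gene family was followed across all libraries of an RNA-seq study of neonatal mouse lung. Members were the protein-coding genes whose symbol consists of Col, a number, the letter a and a second number. The rule uses the symbol alone and no measured value, although the family was picked with earlier results of these data known. This gave 44 genes among the 21950 protein-coding genes and 52550 genes of the count table. Of these, 43 passed the filter on low counts and were tested. The exception was *Col19a1*, which lay between 0 and 1.31 CPM in every library, where CPM is the count per 1e+06 counts of the tested genes after scaling. *Col19a1* passed only when libraries were left out, and it has no call here.

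Whole lungs were taken at postnatal day 5 from C57Bl/6J mice, with 3 mice and 3 libraries in each of 4 groups. Wild-type (WT, Adm+/+) mice carry both functional copies of *Adm*, the gene of the vasoactive peptide adrenomedullin, and Adm+/- mice carry 1 functional copy in the germline, so that no cell type is targeted. Each genotype received 6 mg/kg of lipopolysaccharide (LPS) of *Escherichia coli* O55:B5 or phosphate-buffered saline (PBS) by intraperitoneal injection, once a day on 3 days from postnatal day 3. Tissue was collected 6 h later than the final injection. LPS is a component of the outer membrane of Gram-negative bacteria that provokes inflammation, and in this design it reaches the lung from the peritoneum and not from the airway. Libraries are named by group and library number: WT PBS 3, 4 and 5, WT LPS 9, 10 and 11, Adm+/- PBS 6, 7 and 8, and Adm+/- LPS 1, 2 and 12.

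Collagens are secreted or membrane-bound proteins in which chains wind around each other into a helix, and many collagen types need chains from more than 1 gene in a fixed proportion. Fibrillar collagens of types I, III and V form the tensile fibrils of airway walls, vessels and alveolar septa and are made mainly by fibroblasts. Type IV collagen forms the sheet of the basement membrane on which epithelium and endothelium rest, type VI forms beaded filaments at the border of cells and matrix, and smaller classes coat fibrils, anchor epithelium or span the cell membrane. Between the first days of life and weaning the mouse lung lays down new septa. All libraries here are of postnatal day 5, so collagen levels are not compared with another age.

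The libraries held 22382535 to 38062873 counts. *Adm* itself lay at 3.96 to 7.09 CPM in WT PBS, 4.46 to 8.15 in WT LPS, 2.87 to 4.58 in Adm+/- PBS and 3.74 to 6.28 in Adm+/- LPS, so the genotypes overlapped. The summed level of 10 type II pneumocyte markers was 13497 to 17307 CPM and that of 12 endothelial markers was 3027 to 3959 CPM over all libraries, so both lung cell types were seen in each. WT PBS 5, Adm+/- PBS 6, WT LPS 9 and WT LPS 11 stood apart in ways that touch collagen. WT PBS 5 and Adm+/- PBS 6 had the lowest share of protein-coding counts (77.8% and 80.1%, against 84.3% to 87.6% elsewhere) and the highest share of the noncoding RNA *Gm26917* (16.6% and 13.3%, against 5.42% to 7.40%). In WT LPS 9 and 11, a list of squamous epithelium genes led by *Krt4* and *Krt13* summed to 3476 and 1780 CPM, against 5.39 to 50.04 CPM in the other libraries. A skeletal muscle list led by *Myh8* and *Neb* summed to 557 to 1543 CPM in the 3 WT LPS libraries and to 20.4 to 49.3 CPM elsewhere. The collagen results that these libraries changed most are given with and without them.

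Collagen genes took 2.16% to 6.28% of the protein-coding counts. The share was 2.76%, 2.90% and 6.28% in WT PBS 3, 4 and 5, and 2.16%, 2.79% and 2.53% in WT LPS 9, 10 and 11. It was 4.36%, 2.75% and 2.69% in Adm+/- PBS 6, 7 and 8, and 2.39%, 2.53% and 2.47% in Adm+/- LPS 1, 2 and 12. WT PBS 5 and Adm+/- PBS 6 were thus the only libraries above 2.90%, and without them the 4 groups lay close together. Of the difference in summed collagen CPM from the other PBS libraries of the genotype, *Col1a1*, *Col4a1*, *Col3a1*, *Col4a2* and *Col1a2* supplied 86.6% in WT PBS 5 and 85.7% in Adm+/- PBS 6. Most members shifted the same way, and 41 of the 43 tested members were higher in WT PBS 5 than the mean of WT PBS 3 and 4, by a median of 0.89 on the log2 scale against 0.012 over all tested genes, and 36 of 43 were higher in Adm+/- PBS 6 than the mean of Adm+/- PBS 7 and 8, by a median of 0.42. *Col1a1* was 3.09-fold higher in WT PBS 5 and 2.09-fold higher in Adm+/- PBS 6, and *Col2a1* was 7.01-fold higher in WT PBS 5. Taken as fibroblast markers, 14 genes outside the family, led by *Macf1* and *Mfap4*, summed to 12491 and 13114 CPM in these 2 libraries. The other PBS libraries held 12400 to 13647 CPM. Of the 14, 10 were higher in WT PBS 5 and 7 in Adm+/- PBS 6 than the mean of the other PBS libraries of the genotype. The median difference of the 14 genes was 0.025 and 0.0029 on the log2 scale. Whether this sum follows the number of fibroblasts was not tested. The sums of other lists were above those of all other PBS libraries. Smooth muscle and pericyte markers summed to 2744 and 2522 CPM against 1996 to 2128 CPM, and collagen hydroxylases, glycosyltransferases and chaperones to 2911 and 2678 CPM against 2200 to 2311 CPM. Type II pneumocyte markers summed to 16080 and 17219 CPM against 13497 to 14826 CPM, type I pneumocyte markers to 4524 and 4239 CPM against 3649 to 4033 CPM and endothelial markers to 3959 and 3753 CPM against 3424 to 3653 CPM. Of the last 2 lists, however, only 4 of 10 type I markers and 4 of 12 endothelial markers were higher in each of the libraries. Mesothelial markers summed to 439 and 346 CPM against 259 to 292 CPM and cartilage markers to 268 and 215 CPM against 164 to 168 CPM, although only 4 of the 10 cartilage markers and 4 of the 8 mesothelial markers were higher in Adm+/- PBS 6 than the mean of Adm+/- PBS 7 and 8. The part of these lists in the collagen share was not tested. The deviation of a gene in WT PBS 5 and Adm+/- PBS 6 followed its GC content, with a Spearman correlation across 15875 genes of 0.66 and 0.58 (genes are not independent, and all points share 1 library), and the median GC content was 55.2% for the collagen members and 49.96% for all tested genes. The part of GC content in the collagen share was not tested, but the gene-by-gene tests and the chain ratios below were also computed after each library's trend with GC content had been removed.

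**Figure D1:**
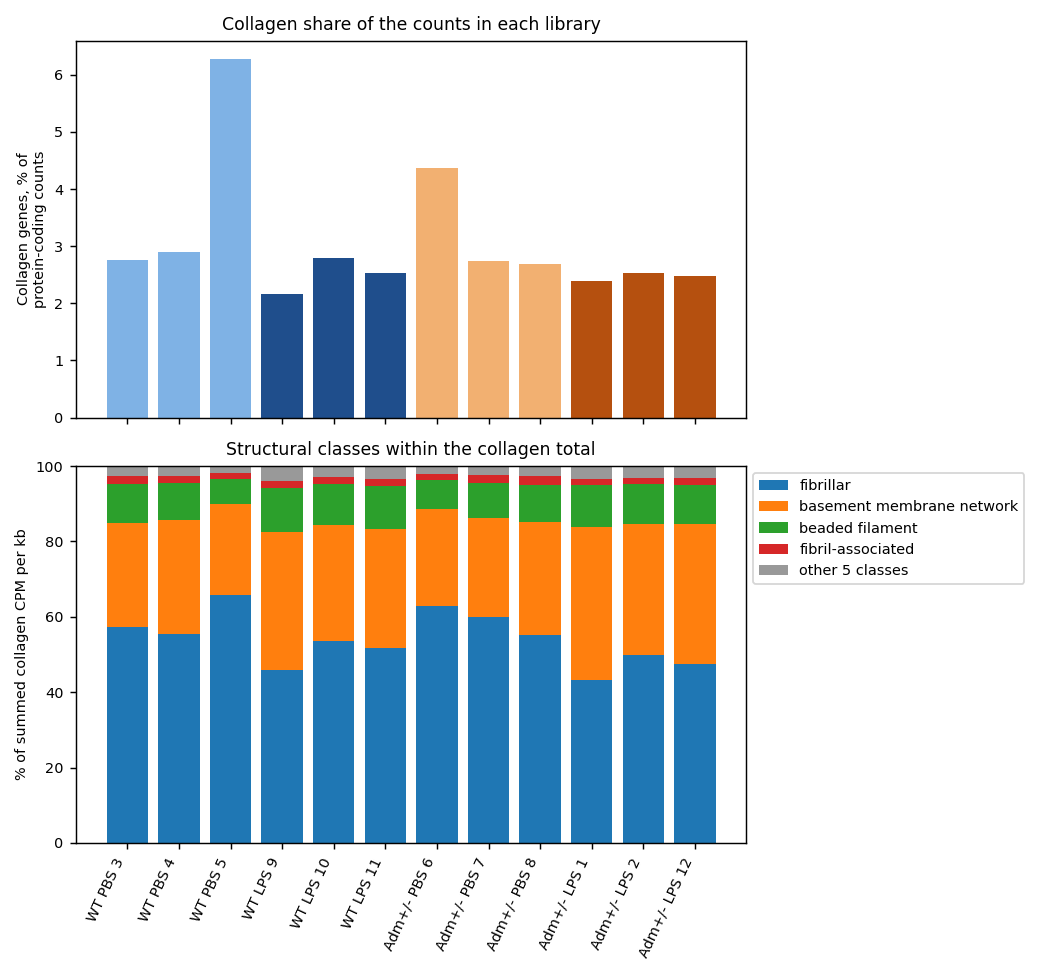
The upper panel plots the collagen share of protein-coding counts (%) in each of the 12 libraries and the lower panel the percentage of the summed collagen CPM per kb that each structural class holds. WT PBS 5 (6.28%) and Adm+/- PBS 6 (4.36%) stand above the other libraries, and fibrillar collagens take a smaller part in the LPS than in the PBS libraries of each genotype.

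To compare genes with each other, CPM was divided by the length of the union of a gene's exons in kb. On this scale the members' means ran from 0.0353 (*Col19a1*) to 1034 (*Col1a1*). The 5 most abundant members held 77.1% of the summed collagen level and the 12 most abundant held 93.8%. *Col1a1* led with a mean of 1034 CPM per kb over all libraries, followed by *Col4a1* (604), *Col3a1* (526), *Col4a2* (407) and *Col1a2* (370). *Col6a1* (177) and *Col5a1* (106) also exceeded 100 CPM per kb, 14 members lay between 10 and 100, 13 between 1 and 10, and 10 below 1. *Col3a1* exceeded *Col4a1* per kb in WT PBS 5, Adm+/- PBS 6 and Adm+/- PBS 7 and lay below it in the other libraries.

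**Figure D2:**
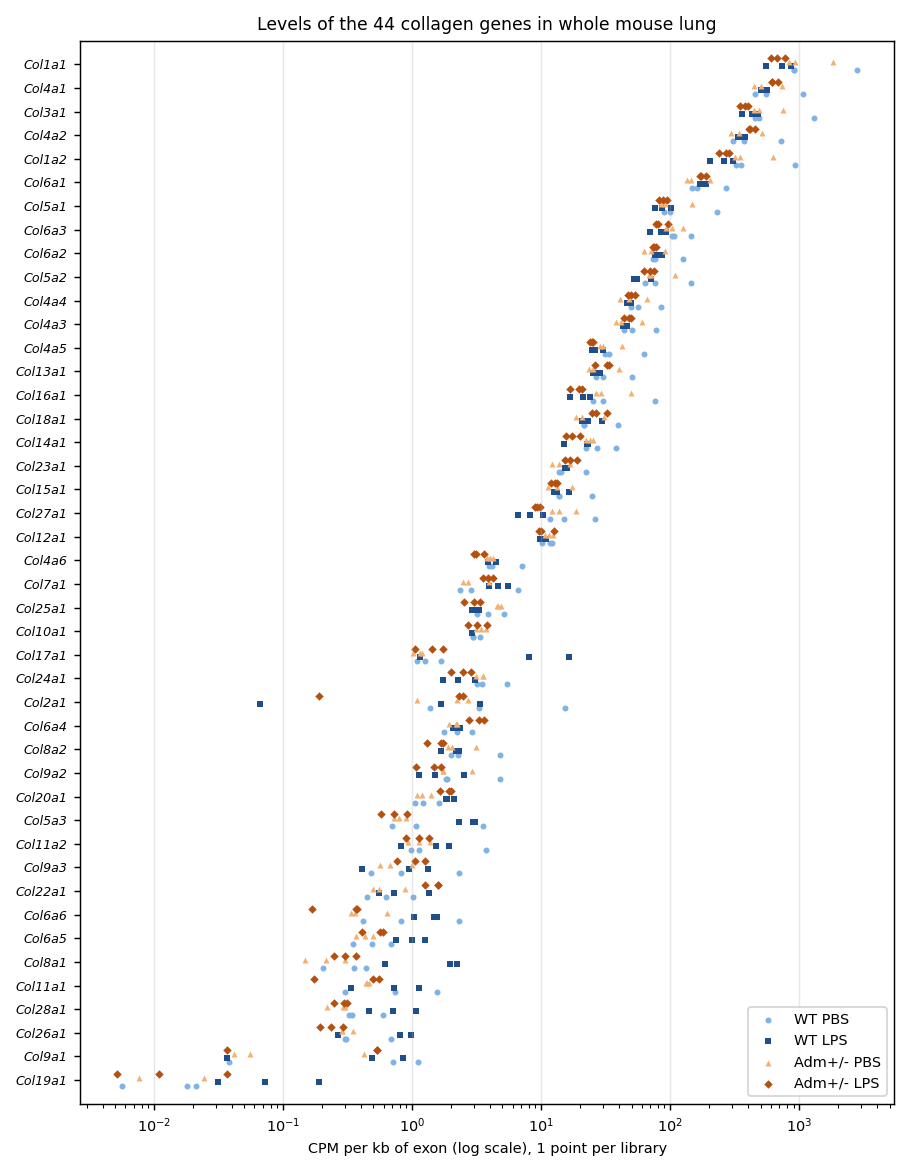
CPM per kb of exon (log axis) of the 44 collagen genes, ordered by their mean over all libraries, with 1 point per library (circles WT PBS, squares WT LPS, triangles Adm+/- PBS, diamonds Adm+/- LPS). *Col1a1* leads with a mean of 1034, *Col17a1* and *Col8a1* are highest in WT LPS libraries, and the 1 library in which *Col19a1* had no count is not drawn.

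The balance between classes, given as a description, differed between LPS and PBS libraries in both genotypes. Fibrillar collagens held 59.5% ± 5.45 of the collagen level per kb in WT PBS and 50.4% ± 3.997 in WT LPS (SD, n = 3), and 59.3% ± 3.89 in Adm+/- PBS and 46.9% ± 3.33 in Adm+/- LPS. The basement membrane chains held 27.3% ± 3.01 and 32.98% ± 3.20 in the WT groups and 27.3% ± 2.28 and 37.5% ± 2.92 in the Adm+/- groups. In each genotype the highest fibrillar share under LPS (53.5% in WT, 49.9% in Adm+/-) lay below the lowest under PBS (55.4% and 55.2%). This holds with or without WT PBS 5 and Adm+/- PBS 6, whose fibrillar shares were the highest of their groups. A lower level of a message in whole lung can come from fewer cells that carry it or from less RNA per cell, and these cannot be told apart here. The fibroblast list summed to 12491 to 12735 CPM in WT PBS and 8967 to 10491 CPM in WT LPS. In Adm+/- lungs it summed to 12400 to 13647 CPM under PBS and 9686 to 10109 CPM under LPS. Of its 14 genes, 10 had negative and 4 positive log2 fold changes in WT lungs, and 9 and 5 in Adm+/- lungs. Its part in the fibrillar share was not tested.

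LPS against PBS was then tested gene by gene in each genotype, with edgeR's quasi-likelihood test on all 12 libraries and Benjamini-Hochberg adjustment over 15885 genes. To pass, a gene needed an adjusted p under 0.05 together with a log2 change of more than 0.5 in size. In WT lungs 4 collagen genes rose and 3 fell, 7 of 43 in all, where 17.6% of all tested genes passed, 10.5% higher and 7.09% lower. In Adm+/- lungs 3 rose and 1 fell, 4 of 43, where 25.0% of all tested genes passed, 12.8% higher and 12.2% lower. The median log2 fold change of the 43 members was -0.38 in WT and -0.11 in Adm+/- lungs, against 0.0091 and -0.013 over all genes. The PBS and LPS libraries did not overlap for 3 members that were higher and 8 that were lower in WT lungs, where 36.2% of all genes did not overlap, 18.3% higher and 17.9% lower. The same was seen for 3 higher and 12 lower members in Adm+/- lungs, where 53.7% of all genes did not overlap, 26.6% higher and 27.1% lower. Without WT PBS 5 and Adm+/- PBS 6 these medians were 0.05 and 0.02, and the counts became 7 higher and 1 lower in WT and 5 higher and 2 lower in Adm+/- lungs, where 15.3% and 24.4% of all genes passed. With the GC trend removed the medians were -0.14 and -0.0085 and the counts 6 higher and 4 lower, and 5 higher and 2 lower, where 20.3% and 27.2% of all genes passed. Without WT LPS 9 and 11 no member passed in WT lungs (2 had an unadjusted p below 0.05), where 4.67% of all genes passed, and the median was -0.31. In that fit WT LPS 10 stands alone for its group and is assumed to vary like the other groups, so a call lost there says nothing about its stability. Whichever single library was left out, *Col8a1* in WT and *Col25a1* in Adm+/- lungs kept their calls, and each other call was lost in at least 1 of these fits. No member passed the test of a difference between the genotypes in the LPS response, where 0.145% of all genes passed (3 members had an unadjusted p below 0.05).

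**Figure D3:**
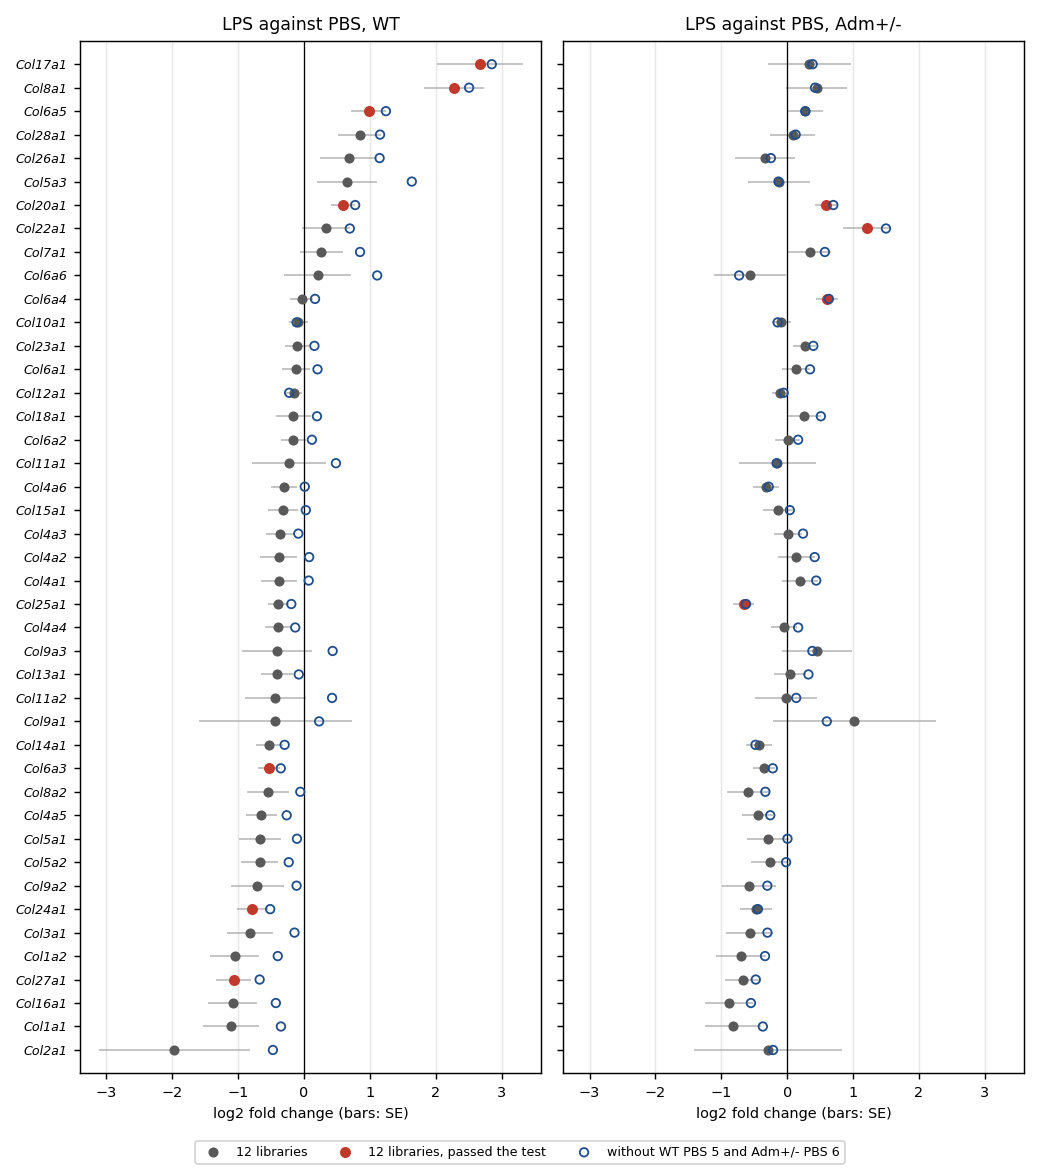
Log2 fold changes of the 43 tested collagen genes, LPS against PBS, in WT (left) and Adm+/- lungs (right), with standard errors. Filled points are the fit of all 12 libraries, red where the gene passed the test, and open circles are the fit without WT PBS 5 and Adm+/- PBS 6, which lies to the right of the filled point for most genes in WT lungs and leaves *Col17a1* and *Col8a1* far above the rest.

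Among the fibrillar collagens, *Col1a1*, *Col3a1* and *Col1a2* were the most abundant. The products of *Col1a1* and *Col1a2* together form type I collagen. *Col1a1* (chromosome 11, 94936224 to 94953042, mm10) lay at 5988, 5968 and 18449 CPM in WT PBS and at 3601, 5672 and 4811 CPM in WT LPS. The Adm+/- values were 12040, 6049 and 5496 CPM under PBS and at 3952, 5047 and 4396 CPM under LPS. The LPS libraries were below all PBS libraries in each genotype, but the gap to the nearest PBS library was small. The log2 fold change was -1.11 ± 0.43 (SE) in WT and -0.82 ± 0.42 in Adm+/- lungs, which did not pass (edgeR adjusted p = 0.0834 and 0.169), and -0.35 and -0.37 without WT PBS 5 and Adm+/- PBS 6 (adjusted p = 0.160 and 0.114). It passed in WT lungs when WT PBS 3 (-1.38, adjusted p = 0.0442) or WT PBS 4 (-1.38, adjusted p = 0.0485) was left out, which gives WT PBS 5 more weight. It also passed in Adm+/- lungs in the fit without WT PBS 5 (-0.81, adjusted p = 0.0314), and there without Adm+/- PBS 6 alone it was -0.38 (adjusted p = 0.569). *Col1a2* gave -1.05 ± 0.38 and -0.70 ± 0.37 (adjusted p = 0.0652 and 0.177), and it passed in WT lungs once the GC trend was removed (-0.86, adjusted p = 0.0453) or when WT PBS 3, WT PBS 4 or Adm+/- PBS 6 was left out (-1.31, -1.28 and -1.05, adjusted p = 0.0322, 0.0434 and 0.0477). Its values without WT PBS 5 and Adm+/- PBS 6 were -0.40 and -0.34 (adjusted p = 0.0826 and 0.107), and in Adm+/- lungs it passed without WT PBS 5 (-0.70, adjusted p = 0.0311). *Col3a1*, which forms type III collagen alone, gave -0.82 ± 0.35 and -0.57 ± 0.35 (adjusted p = 0.116 and 0.243), and -0.15 and -0.30 without the 2 PBS libraries (adjusted p = 0.399 and 0.0723). It passed in WT lungs without WT PBS 3 (-1.08, adjusted p = 0.0453) and in Adm+/- lungs without WT PBS 5 (-0.57, adjusted p = 0.0260). Its stretch of 250 bases upstream of the start (GRCm38.p6, RefSeq, chr1:45311288-45311537, plus strand, no annotated exon) is printed because the level of this gene relative to *Col1a2* shifted under LPS, as described with the chain ratios. Capitals mark the letters TATAAA.

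Col3a1 upstream: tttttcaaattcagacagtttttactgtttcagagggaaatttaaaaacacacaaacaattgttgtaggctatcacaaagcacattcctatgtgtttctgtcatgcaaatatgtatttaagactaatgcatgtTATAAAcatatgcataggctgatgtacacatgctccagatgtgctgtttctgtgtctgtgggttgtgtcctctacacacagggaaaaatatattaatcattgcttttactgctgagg

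TATAAA, sought on both strands, stood in 5 of the 35 collagen genes with such a window (14.3%) and in 12.3% of all 32544 windows of that length. A match describes letters and not a binding site.

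Of the 11 fibrillar genes, 2 passed in WT lungs (18.2%, against 17.6% of all genes), both lower, and none passed in Adm+/- lungs, where 25.0% of all genes did. The 2 that fell have collagen domains shorter than those of the classic fibril formers. *Col27a1* (chromosome 4, 63214004 to 63334991), which is best known from growing cartilage, lay at 152, 195 and 339 CPM in WT PBS and at 86.6, 134 and 106 CPM in WT LPS. Its log2 fold change was -1.07 ± 0.27 (edgeR adjusted p = 0.0171) in WT lungs and -0.67 ± 0.27 (adjusted p = 0.0763) in Adm+/- lungs, where PBS libraries lay at 242, 157 and 180 CPM and LPS libraries at 116, 127 and 120 CPM. The groups did not overlap in either genotype. Of the 3 members that fell in WT lungs it was the one that still fell without WT PBS 5 and Adm+/- PBS 6 (-0.67, adjusted p = 0.0197). Its call was lost without WT LPS 9 (-0.93, adjusted p = 0.0824). With WT LPS 10 as the sole WT LPS library it was -0.77 (adjusted p = 0.368). *Col24a1* lay at 24.2, 26.6 and 41.6 CPM in WT PBS and at 13.2, 23.2 and 17.2 CPM in WT LPS (log2 fold change -0.79 ± 0.24, adjusted p = 0.0369), and it no longer passed without these 2 libraries (-0.51, adjusted p = 0.116), nor without WT LPS 9 (-0.61, adjusted p = 0.150) or WT LPS 11 (-0.76, adjusted p = 0.0864), and with WT LPS 10 alone left it was -0.41 (adjusted p = 0.552). The call was also lost, at -0.79, without Adm+/- PBS 8 or Adm+/- LPS 1 (adjusted p = 0.0512 and 0.0523). *Col5a1* and *Col5a2*, whose chains start fibrils, had log2 fold changes of -0.67 and -0.68 in WT and -0.29 and -0.27 in Adm+/- lungs, and neither passed. These became -0.11 and -0.23 in WT and 0.0041 and -0.017 in Adm+/- lungs without WT PBS 5 and Adm+/- PBS 6.

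The low-level fibrillar gene *Col5a3* behaved unlike the rest of its class. It lay at 7.34, 4.71 and 24.3 CPM in WT PBS, at 15.7, 20.002 and 20.8 CPM in WT LPS and between 3.93 and 6.20 CPM in all 6 Adm+/- libraries. All WT LPS libraries and WT PBS 5 were high. With all 12 libraries the log2 fold change in WT lungs was 0.65 ± 0.45 (adjusted p = 0.320), without WT PBS 5 and Adm+/- PBS 6 it was 1.63 (adjusted p = 0.00327), and with the GC trend removed 1.12 (adjusted p = 0.0268). Without WT LPS 9 and 11 it was 0.74 (adjusted p = 0.635). The skeletal muscle list was high in the same 3 LPS libraries but not in WT PBS 5 (27.3 CPM), and its part in *Col5a3* was not tested. *Col2a1*, *Col9a1*, *Col11a1* and *Col11a2*, known as cartilage collagens, varied between libraries more than between groups. *Col2a1* ranged from 0.62 CPM in WT LPS 9 to 141 CPM in WT PBS 5, a 229-fold span, with 1.76 CPM in Adm+/- LPS 1 and 10.1 to 31.1 CPM in all others. *Col9a1* was at 0.18 to 0.28 CPM in WT PBS 4, WT LPS 9, Adm+/- PBS 6, Adm+/- PBS 8 and Adm+/- LPS 1 and at 2.13 to 5.62 CPM in the other 7 libraries. The same 5 libraries had *Acan*, the core protein of cartilage aggrecan, at 0.04 to 0.63 CPM, while the other 7 had it at 2.74 to 10.4 CPM. *Col9a1* and *Acan* thus split the libraries alike, across all 4 groups. Their log2 fold changes under LPS had standard errors above 1 for *Col2a1* and *Col9a1*, and none of the 4 genes passed. When WT PBS 5 and Adm+/- PBS 6 were left out, the WT changes of *Col9a1*, *Col11a1* and *Col11a2* turned from -0.44, -0.23 and -0.44 to 0.23, 0.48 and 0.42, and that of *Col2a1* moved from -1.97 to -0.47.

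All 6 basement membrane chains had negative log2 fold changes in WT lungs, with a median of -0.38, as for the whole family. In Adm+/- lungs 3 were positive and 3 negative, with a median of -0.019. *Col4a1* lay at 3397, 4076 and 7941 CPM in WT PBS and at 3905, 4156 and 3729 CPM in WT LPS. The Adm+/- values were 5500, 3318 and 3746 CPM under PBS and at 5134, 4614 and 4614 CPM under LPS. The groups overlapped in both genotypes, with the highest value in WT PBS 5 and Adm+/- PBS 6 of each genotype. Its log2 fold change was -0.39 ± 0.27 (edgeR adjusted p = 0.328) in WT and 0.19 ± 0.27 (adjusted p = 0.631) in Adm+/- lungs. Without the 2 libraries it was 0.07 (adjusted p = 0.647) and 0.44 (adjusted p = 0.00865), the second below the fold threshold. *Col4a2* gave nearly the same values, -0.38 ± 0.28 and 0.14 ± 0.28 (adjusted p = 0.347 and 0.743), and its product joins that of *Col4a1* in 1 molecule. Without the 2 libraries it was 0.077 and 0.42 (adjusted p = 0.619 and 0.0118). The chains of the mature alveolar and glomerular basement membrane, *Col4a3* and *Col4a4*, changed by -0.37 and -0.40 in WT and by 0.01 and -0.05 in Adm+/- lungs, and without the 2 libraries by -0.088 and -0.13 in WT and 0.24 and 0.17 in Adm+/- lungs. *Col4a5* lay below its PBS range in all LPS libraries of each genotype (-0.65 ± 0.24, adjusted p = 0.0687, and -0.45 ± 0.23, adjusted p = 0.169), and its changes were both -0.26 without the 2 libraries (adjusted p = 0.0571 and 0.0454), below the fold threshold. *Col4a6* changed by -0.31 and -0.32, and by 0.010 and -0.28 without them. None of the 6 chains passed in either genotype.

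The type IV genes lie in pairs, head to head. *Col4a1* and *Col4a2* overlap by 22 bases at their starts on chromosome 8, *Col4a6* and *Col4a5* start 1308 bases apart on chromosome X, and *Col4a4* (chr1:82448423-82586849) and *Col4a3* (chr1:82586921-82722059) leave only 71 bases between their starts. Since the log2 ratio of *Col4a3* to *Col4a4* stayed within -0.30 to -0.15 in the 12 libraries, the whole interval is shown, from RefSeq (GRCm38.p6, chr1:82586850-82586920, minus strand, so that it reads toward *Col4a4*).

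Col4a4-Col4a3 interval: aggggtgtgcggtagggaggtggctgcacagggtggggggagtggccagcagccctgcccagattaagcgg

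Its GC content is 69.0%, and none of the motifs searched stands in it on either strand, which says nothing of the factors that bind there. Beside TATAAA these were the CCAAT box, the GC box GGGCGG, the STAT motif TTCNNNGAA and an NF-kB motif. In windows of 250 bases, CCAAT stood in 34.3% of the 35 collagen genes and 33.8% of all windows, the STAT motif in 5.71% and 7.04% and the NF-kB motif in 11.4% and 7.28%. The GC box stood in 21 of 35 (60.0%) and in 32.96% of all windows.

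The beaded filament genes of type VI divided by chain. *Col6a1* and *Col6a2*, whose chains are obligatory partners, had log2 fold changes of -0.12 ± 0.21 and -0.16 ± 0.19 in WT and 0.14 ± 0.21 and 0.00 ± 0.19 in Adm+/- lungs, with none passing. They were 0.20 and 0.12 in WT and 0.35 and 0.17 in Adm+/- lungs without WT PBS 5 and Adm+/- PBS 6. *Col6a3*, the long chain that completes the same molecule, lay at 1272, 1242 and 1743 CPM in WT PBS and at 832, 1107 and 1018 CPM in WT LPS. It fell by 0.53 ± 0.17 on the log2 scale (edgeR adjusted p = 0.0444) without overlap of the groups. In Adm+/- lungs it changed by -0.35 ± 0.17 (adjusted p = 0.140), and without WT PBS 5 and Adm+/- PBS 6 the WT value was -0.35 (adjusted p = 0.0783). The call was lost without WT PBS 5 (-0.35, adjusted p = 0.125), without WT LPS 9 (-0.42, adjusted p = 0.179) or without WT LPS 11 (-0.55, adjusted p = 0.0797), and with WT LPS 10 alone left the value was -0.36 (adjusted p = 0.503). At -0.53 it was lost without Adm+/- PBS 8, Adm+/- LPS 1 or Adm+/- LPS 12 (adjusted p = 0.0594, 0.0568 and 0.0634).

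The other 3 type VI chains, *Col6a4*, *Col6a5* and *Col6a6*, are encoded side by side on chromosome 9 and can stand in for the third chain. *Col6a4* (105989454 to 106096783) lay at 18.7, 16.4 and 19.1 CPM in Adm+/- PBS and at 30.8, 23.4 and 28.1 CPM in Adm+/- LPS, so that all LPS libraries were higher. It rose by 0.60 ± 0.17 (adjusted p = 0.0212) there and by 0.63 (adjusted p = 0.00880) without the 2 PBS libraries, and in WT lungs its change was -0.04 ± 0.17 (adjusted p = 0.896), and 0.17 without them. The call was lost without Adm+/- PBS 7 (0.54, adjusted p = 0.0763), Adm+/- LPS 1 (0.51, adjusted p = 0.0847) or Adm+/- LPS 12 (0.59, adjusted p = 0.0655). The test of the difference between genotypes gave an adjusted p of 0.514. *Col6a5* lay at 4.62, 3.30 and 6.49 CPM in WT PBS and at 11.9, 7.03 and 9.36 CPM in WT LPS. It rose by 0.98 ± 0.27 (adjusted p = 0.0245) in WT lungs and changed by 0.27 ± 0.27 (adjusted p = 0.479) in Adm+/- lungs. Without WT LPS 9 and 11 its change in WT lungs was 0.56 (adjusted p = 0.476), and the call was lost without WT LPS 9 alone (0.77, adjusted p = 0.115), WT PBS 3 (0.95, adjusted p = 0.0538) or WT PBS 4 (0.77, adjusted p = 0.0701). *Col6a6* was high in the same libraries as *Col5a3*, with 9.40 to 14.3 CPM in WT LPS, 21.1 CPM in WT PBS 5, 3.79 and 7.57 CPM in the other WT PBS libraries and 1.53 to 5.88 CPM in Adm+/- lungs, and it did not pass. Its change in WT lungs was 0.20, and 1.11 without WT PBS 5 and Adm+/- PBS 6 (adjusted p = 0.0784).

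Fibril-associated collagens coat fibrils and link them to other matrix. *Col14a1* and *Col16a1*, the most abundant of the class, changed by -0.53 ± 0.20 and -1.08 ± 0.37 in WT lungs (adjusted p = 0.0821 and 0.0566) and by -0.43 ± 0.20 and -0.89 ± 0.37 in Adm+/- lungs (adjusted p = 0.126 and 0.0887). The WT changes were -0.30 and -0.43 without WT PBS 5 and Adm+/- PBS 6 (adjusted p = 0.262 and 0.0663). *Col14a1* passed in WT lungs without WT PBS 4 (-0.69, adjusted p = 0.0348), and *Col16a1* without WT PBS 3, WT PBS 4 or Adm+/- PBS 6 (-1.36, -1.29 and -1.08, adjusted p = 0.0243, 0.0417 and 0.0442). *Col16a1* passed in Adm+/- lungs without WT PBS 5 alone (-0.88, adjusted p = 0.00841), without WT PBS 5 and Adm+/- PBS 6 (-0.55, adjusted p = 0.0176), and with the GC trend removed it passed in WT (-0.67, adjusted p = 0.0321) and in Adm+/- lungs (-0.56, adjusted p = 0.0499). *Col12a1* lay between 147 and 191 CPM in every library, with changes of -0.15 ± 0.12 and -0.11 ± 0.12. *Col22a1* (chromosome 15, 71795795 to 72034227), a collagen known from the junctions of muscle and tendon, lay at 8.15, 4.56 and 5.05 CPM in Adm+/- PBS and at 11.6, 14.5 and 14.7 CPM in Adm+/- LPS. It rose by 1.21 ± 0.36 (adjusted p = 0.0267) and by 1.5 (adjusted p = 0.00792) without WT PBS 5 and Adm+/- PBS 6. The call was lost without Adm+/- PBS 7 (1.04, adjusted p = 0.0935), Adm+/- PBS 8 (1.1, adjusted p = 0.0898), Adm+/- LPS 2 (1.15, adjusted p = 0.0708) or Adm+/- LPS 12 (1.14, adjusted p = 0.0770). In WT lungs it changed by 0.34 ± 0.36 (adjusted p = 0.527), by 0.69 without those 2 libraries (adjusted p = 0.163) and by 0.96 without WT LPS 9 and 11 (adjusted p = 0.264), and the test of the difference between genotypes did not pass (adjusted p = 0.786). The skeletal muscle list was at 20.4 to 25.4 CPM in Adm+/- PBS and 31.3 to 49.3 CPM in Adm+/- LPS, and its part in *Col22a1* was not tested.

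*Col20a1* (chromosome 2, 180986535 to 181018363) was the only member that passed in both genotypes, where 7.23% of all genes rose in both and 5.85% fell in both. It lay at 5.44, 6.21 and 8.34 CPM in WT PBS and at 10.9, 9.40 and 9.64 CPM in WT LPS. The Adm+/- libraries held 7.21, 5.57 and 6.12 CPM under PBS and at 10.2, 8.42 and 9.83 CPM under LPS, so the groups did not overlap in either genotype. It rose by 0.59 ± 0.18 in each (adjusted p = 0.0365 and 0.0254), and by 0.78 and 0.70 without WT PBS 5 and Adm+/- PBS 6 (adjusted p = 0.00697 and 0.00476). The change stayed positive when any single library was left out, from 0.46 (adjusted p = 0.0936, without WT PBS 3) in WT and from 0.51 (adjusted p = 0.0909, without Adm+/- PBS 7) in Adm+/- lungs, but the call was lost in 7 of these fits in WT and 4 in Adm+/- lungs. Leaving out WT LPS 9 and 11 together gave 0.50 (adjusted p = 0.371) in WT lungs. Its exons share bases with *BX649560.1* on the same strand, which drew 4424 counts over all libraries against 2430 for *Col20a1*, so its counts are uncertain.

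Of the transmembrane collagens, *Col13a1* and *Col23a1* were the most abundant and did not pass (WT -0.41 ± 0.24 and -0.10 ± 0.18, Adm+/- 0.05 ± 0.24 and 0.26 ± 0.18). With WT PBS 5 and Adm+/- PBS 6 left out they were -0.081 and 0.16 in WT and 0.32 and 0.40 in Adm+/- lungs (adjusted p = 0.627, 0.259, 0.0457 and 0.0105), below the fold threshold. *Col25a1* (chromosome 3, 130131501 to 130599877), which is needed for motor nerves to reach muscle, lay at 63.3, 60.3 and 58.2 CPM in Adm+/- PBS and at 43.7, 39.05 and 32.5 CPM in Adm+/- LPS. The groups were well apart, and the gene fell by 0.66 ± 0.16 (edgeR adjusted p = 0.00982). It was the 1 member called in Adm+/- lungs whose call held whichever single library was left out. In WT lungs it lay at 50.2, 41.4 and 66.5 CPM under PBS and at 42.7, 37.6 and 40.2 CPM under LPS (-0.39 ± 0.16, adjusted p = 0.103, and -0.19 without WT PBS 5 and Adm+/- PBS 6).

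*Col17a1* (chromosome 19, 47646344 to 47692094), a component of the hemidesmosomes that fix stratified epithelium to its basement membrane, had the largest log2 fold change of the tested members under LPS. It lay at 7.53, 6.55 and 10.1 CPM in WT PBS and at 97.7, 6.94 and 47.9 CPM in WT LPS 9, 10 and 11, and between 6.12 and 10.4 CPM in all Adm+/- libraries. WT LPS 9 and 11 were thus far above all others, while WT LPS 10 lay inside the PBS range. The log2 fold change of 2.67 ± 0.65 (adjusted p = 0.0152) became -0.21 (adjusted p = 0.785) without WT LPS 9 and 11 and 1.76 (adjusted p = 0.0788) without WT LPS 9 alone. The squamous list was at 3476, 35.3 and 1780 CPM in the same 3 libraries, and among its 16 members *Krt4* ran at 1382, 10.98 and 755 CPM and *Krt13* at 1027, 9.52 and 542 CPM. Its part in *Col17a1* was not tested.

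*Col8a1* (chromosome 16, 57624258 to 57754737) encodes a short-chain collagen known from vessel walls and the membrane below the corneal endothelium. It lay at 2.76, 1.6 and 3.46 CPM in WT PBS and at 17.3, 4.78 and 15.4 CPM in WT LPS. Those of Adm+/- lungs were 1.68, 2.37 and 1.15 CPM under PBS and at 1.94, 2.35 and 2.85 CPM under LPS. All WT LPS libraries were above all WT PBS libraries, with the same 2 libraries highest as for *Col17a1*. Its log2 fold change in WT lungs was 2.27 ± 0.45 (edgeR adjusted p = 0.00565), a call that held whichever single library was left out, and with WT LPS 10 as the 1 library of its group, without WT LPS 9 and 11, the change was 0.88 (adjusted p = 0.349). The squamous list was highest in the same 2 libraries, and its part was not tested. In Adm+/- lungs the change was 0.45 ± 0.47 (adjusted p = 0.502), and the test of the difference between genotypes gave an adjusted p of 0.467. Because it was the member with the smallest adjusted p, the 250 bases upstream of its start are shown (GRCm38.p6, RefSeq, chr16:57754738-57754987, minus strand, no annotated exon), with its 4 matches of the GC box, all on the opposite strand, in capitals.

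Col8a1 upstream: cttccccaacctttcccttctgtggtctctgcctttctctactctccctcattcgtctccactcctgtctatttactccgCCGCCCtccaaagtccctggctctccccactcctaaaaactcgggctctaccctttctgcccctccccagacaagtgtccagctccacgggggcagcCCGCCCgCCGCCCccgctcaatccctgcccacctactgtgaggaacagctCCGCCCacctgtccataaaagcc

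**Figure D4:**
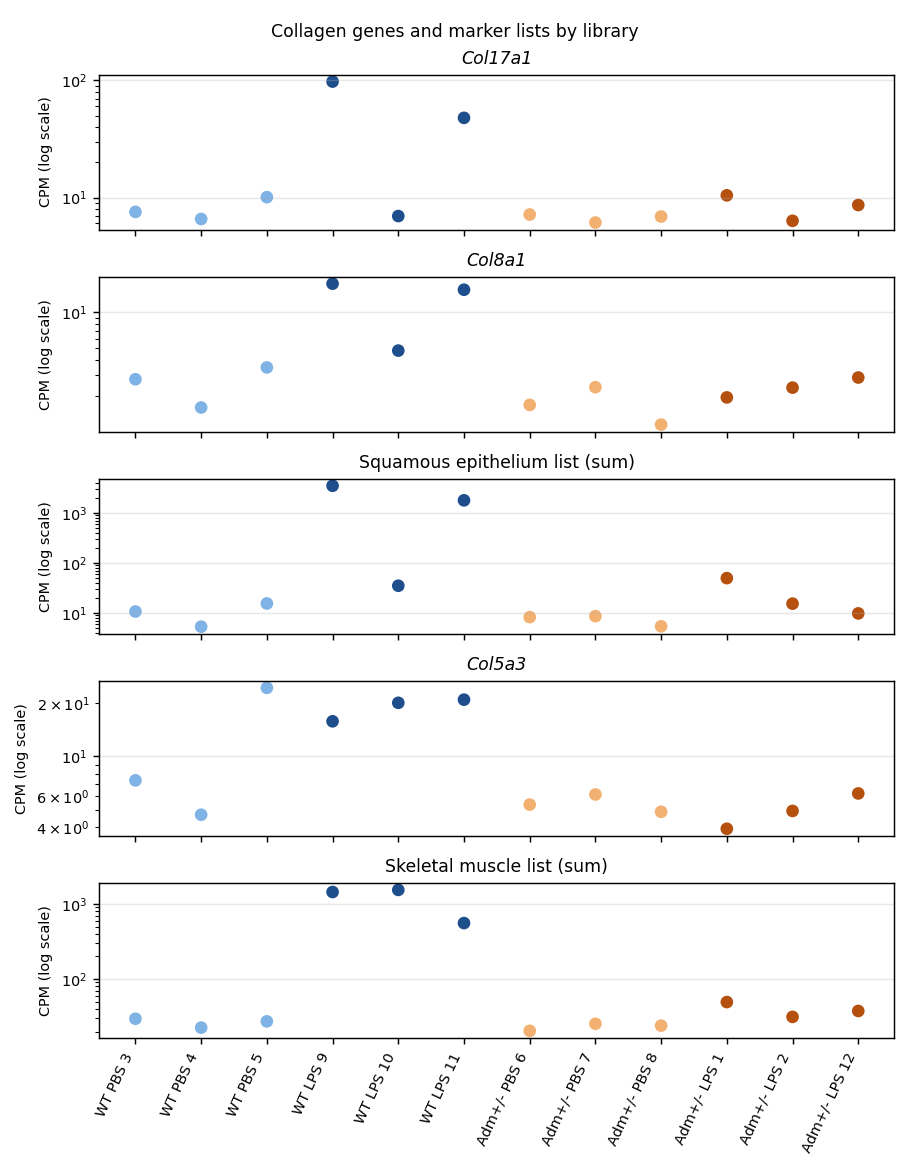
CPM on log axes in each of the 12 libraries for *Col17a1*, *Col8a1* and *Col5a3* and for the summed squamous epithelium and skeletal muscle lists. WT LPS 9 and 11 are highest for *Col17a1*, *Col8a1* and the squamous list, while *Col5a3* is high in all 3 WT LPS libraries and in WT PBS 5 and the muscle list in the 3 WT LPS libraries alone.

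The remaining members did not pass in either genotype with all libraries. *Col7a1*, which forms the anchoring fibrils below epithelium, lay at 24.2, 29.5 and 67.7 CPM in WT PBS and at 56.7, 40.5 and 47.9 CPM in WT LPS (0.26 ± 0.32, adjusted p = 0.582). Those of Adm+/- lungs were 40.8, 25.5 and 28.0 CPM under PBS and at 36.5, 39.5 and 43.1 CPM under LPS (0.34 ± 0.32, adjusted p = 0.460). The other PBS libraries lay below all LPS libraries of their genotype. Without WT PBS 5 and Adm+/- PBS 6 *Col7a1* rose in both genotypes, by 0.85 (adjusted p = 0.00525) and 0.57 (adjusted p = 0.0139), and it rose likewise with the GC trend removed, by 0.69 and 0.65 (adjusted p = 0.0222 and 0.0221). *Col18a1* and *Col15a1*, basement membrane collagens that release the fragment endostatin or a relative of it, changed by -0.16 ± 0.26 and -0.31 ± 0.23 in WT and by 0.26 ± 0.26 and -0.15 ± 0.23 in Adm+/- lungs. Without the 2 libraries the WT values were 0.20 and 0.026, and *Col15a1* was at 0.040 in Adm+/- lungs. *Col18a1* rose in Adm+/- lungs without the 2 libraries (0.51, adjusted p = 0.0281) and with the GC trend removed (0.56, adjusted p = 0.0153). *Col28a1* and *Col26a1* changed by 0.84 ± 0.33 and 0.68 ± 0.44 in WT and by 0.08 ± 0.34 and -0.34 ± 0.45 in Adm+/- lungs, and *Col10a1* and *Col8a2* by -0.09 ± 0.14 and -0.55 ± 0.32 in WT and by -0.09 ± 0.14 and -0.59 ± 0.32 in Adm+/- lungs. Without WT PBS 5 and Adm+/- PBS 6 *Col28a1* passed in WT lungs (1.15, adjusted p = 0.0435), *Col26a1* was at 1.15 there (adjusted p = 0.102), and *Col8a2* was at -0.058 in WT and -0.33 in Adm+/- lungs. *Col8a2* passed in Adm+/- lungs without WT PBS 5 alone (-0.58, adjusted p = 0.0453). *Col10a1* shares bases with exons of *Nt5dc1* on the other strand. *Col9a2*, *Col9a3*, *Col11a1* and *Col11a2* had changes between -0.71 and 0.45 in the 2 genotypes, and between -0.30 and 0.48 without the 2 libraries.

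A ratio of 2 chains inside 1 library does not depend on the scaling between libraries. For 10 pairs of chains that share a molecule, a locus or, for *Col3a1* and *Col1a2*, the same fibrils, the log2 ratio of counts was compared between LPS and PBS by an exact two-sided permutation test over the 400 assignments of treatment within genotype, with Benjamini-Hochberg adjustment over the 10 pairs. The smallest p this design allows is 0.005. *Col4a1* over *Col4a2* was the most constant ratio, between 0.69 and 0.79 in all 12 libraries, with a shift of 0.02 under LPS (exact p = 0.27, adjusted 0.381), but with the GC trend removed the shift turned to -0.080 and passed (adjusted exact p = 0.0167). *Col4a3* over *Col4a4* stayed between -0.30 and -0.15 (shift 0.05, exact p = 0.06, adjusted 0.1), and *Col1a1* over *Col1a2* between 0.40 and 0.68 (shift -0.05, exact p = 0.305, adjusted 0.381). In WT PBS 5 and Adm+/- PBS 6 *Col4a1* over *Col4a2* was 0.73 and 0.69 and *Col4a3* over *Col4a4* was -0.21 and -0.23, while *Col1a1* over *Col1a2* was at its highest (0.68 and 0.65).

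The ratios of 4 pairs passed. *Col6a3* over *Col6a1* was 0.97, 0.82 and 0.56 in WT PBS and 0.16, 0.42 and 0.41 in WT LPS, and 0.74, 0.91 and 0.97 in Adm+/- PBS and 0.15, 0.62 and 0.34 in Adm+/- LPS. All LPS libraries lay below the PBS libraries of their genotype, with a mean shift of -0.48 (exact p = 0.005, adjusted 0.0167), of -0.57 without WT PBS 5 and Adm+/- PBS 6 and of -0.53 with the GC trend removed. *Col6a1* over *Col6a2* rose by only 0.10 (exact p = 0.015, adjusted 0.0375), and its call was lost in 8 of the 12 fits that leave out 1 library, with an adjusted exact p of up to 0.113. *Col3a1* over *Col1a2* was 0.12 to 0.16 in WT PBS and 0.29 to 0.49 in WT LPS, and -0.07 to 0.15 in Adm+/- PBS and 0.16 to 0.19 in Adm+/- LPS (shift 0.18, exact p = 0.005, adjusted 0.0167). *Col8a1* over *Col8a2* was -2.64 to -1.88 in WT PBS and -1.04 to 1.2 in WT LPS, and -3.07 to -1.85 in Adm+/- PBS and -1.72 to -1.39 in Adm+/- LPS (shift 1.83, exact p = 0.005, adjusted 0.0167). The other 3 pairs lost their calls in 6 (*Col8a1* over *Col8a2*), 3 (*Col3a1* over *Col1a2*) and 3 (*Col6a3* over *Col6a1*) of these fits, with adjusted exact p of up to 0.0667. With WT LPS 10 as the sole WT LPS library the shift of *Col8a1* over *Col8a2* was 1.18 (adjusted exact p = 0.0417). The ratio of the type VIII chains did not overlap in the Adm+/- libraries either, where neither gene passed alone and *Col8a1* lay at a few CPM. *Col4a5* over *Col4a6* (shift -0.21, exact p = 0.05, adjusted 0.1), *Col5a1* over *Col5a2* (0.02, exact p = 0.685, adjusted 0.761) and *Col9a1* over *Col9a3* (0.31, exact p = 0.84, adjusted 0.84) did not pass.

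**Figure D5:**
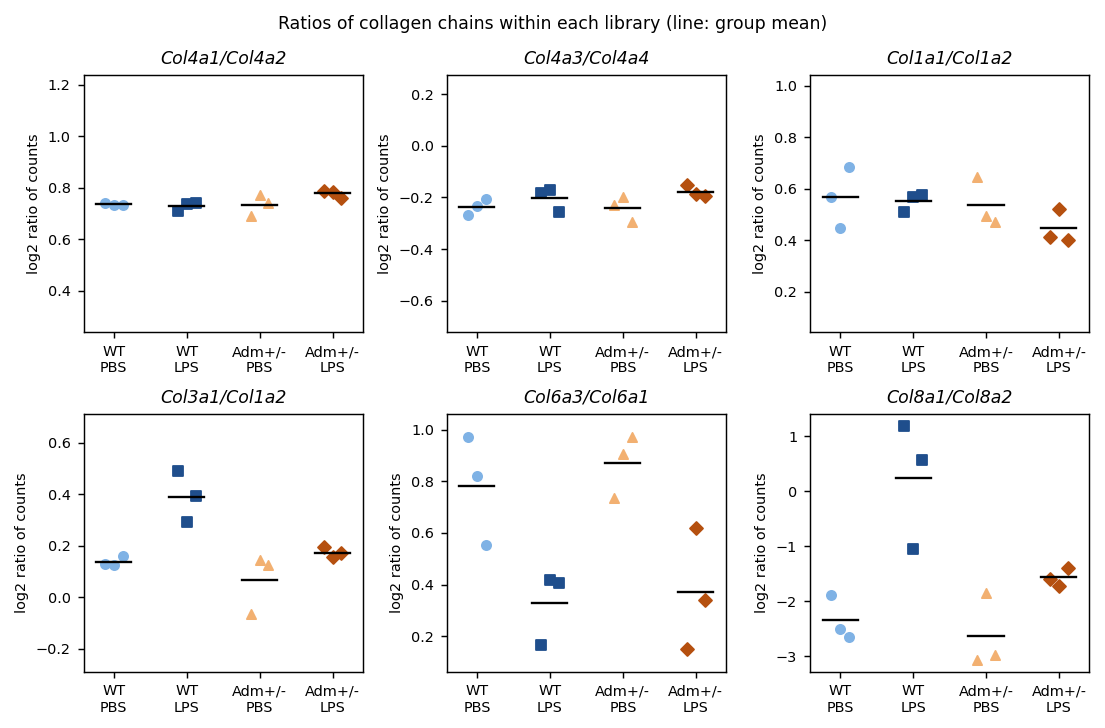
Log2 ratios of counts of chain pairs within each of the 12 libraries, by group, with the group mean as a line. *Col4a1* over *Col4a2* stays between 0.69 and 0.79 throughout, whereas *Col6a3* over *Col6a1* is lower and *Col3a1* over *Col1a2* and *Col8a1* over *Col8a2* are higher in the LPS than in the PBS libraries of each genotype.

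The enzymes and binding partners of collagen were followed as a list. Of 66 such genes in 6 roles, 65 were tested, of which 13 rose and 6 fell in WT and 15 rose and 5 fell in Adm+/- lungs (19 and 20 of 65, against 17.6% and 25.0% of all genes), and 10 rose and 4 fell in both, against 7.23% and 5.85% of all genes. Without WT PBS 5 and Adm+/- PBS 6, 14 rose and 8 fell in WT and 14 rose and 5 fell in Adm+/- lungs, where 15.3% and 24.4% of all genes passed. Of the genes that had passed, *Lair1* in WT (1.31, adjusted p = 0.0640) and *P3h4* and *Ctsk* in Adm+/- lungs (-0.44 and 0.75, adjusted p = 0.0196 and 0.0925) no longer did. With WT LPS 10 as the sole WT LPS library, 10 rose and 1 fell in WT lungs, where 4.67% of all genes passed, and among the genes that no longer passed were *Serpinh1* (-0.62, adjusted p = 0.270), *P4ha3* (-0.75, adjusted p = 0.123), *Lox* (0.73, adjusted p = 0.230), *Loxl3*, *Dcn*, *Lum*, *Thbs2*, *Mrc2*, *Lair1* and *Ctsk*. The counts by role that follow stand beside 10.5% of all genes that rose and 7.09% that fell in WT and 12.8% and 12.2% in Adm+/- lungs. Among 21 genes of hydroxylases, glycosyltransferases and chaperones, 1 rose and 2 fell in each genotype. *Serpinh1*, the collagen-specific chaperone of the endoplasmic reticulum, lay at 606, 581 and 893 CPM in WT PBS and at 329, 453 and 397 CPM in WT LPS. It fell by 0.82 ± 0.18 in WT (adjusted p = 0.00969) and by 0.66 ± 0.18 in Adm+/- lungs (adjusted p = 0.0177). *P4ha3*, a prolyl hydroxylase subunit, fell in WT lungs (-1.12 ± 0.19, adjusted p = 0.00263) and *P3h4*, a partner of lysyl hydroxylase, in Adm+/- lungs (-0.68 ± 0.21, adjusted p = 0.0314). *Tmem38b*, an ion channel of the endoplasmic reticulum needed for procollagen modification, rose by 1.13 ± 0.23 and 1.71 ± 0.23 (adjusted p = 0.00578 and 0.000317).

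Of 7 tested genes that trim procollagen outside the cell, 2 rose and 1 fell in WT and 3 rose and 1 fell in Adm+/- lungs. The propeptidases *Adamts3* and *Adamts14* rose by 0.77 and 0.80 in WT and by 1.59 and 1.44 in Adm+/- lungs, *Tll1* rose by 0.76 in Adm+/- lungs, and the enhancer *Pcolce2* fell by 0.88 and 1.01 (adjusted p = 0.00459 and 0.00111). Of 7 cross-linking enzymes, 2 rose and 1 fell in WT and 3 rose in Adm+/- lungs. *Lox*, lysyl oxidase, lay at 169, 141 and 86.9 CPM in WT PBS and at 292, 220 and 267 CPM in WT LPS, and rose by 0.97 ± 0.21 and 1.05 ± 0.21 (adjusted p = 0.00810 and 0.00336). *Tgm2*, a transglutaminase, rose by 0.98 ± 0.16 and 1.66 ± 0.16, *Loxl4* rose in Adm+/- lungs (1.13 ± 0.17) and *Loxl3* fell in WT lungs (-0.82 ± 0.21).

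Of 11 fibril-shaping proteoglycans and glycoproteins, 2 rose and 1 fell in WT and 1 rose and 1 fell in Adm+/- lungs. The small proteoglycans *Dcn* and *Lum* rose in WT lungs by 1.71 ± 0.40 and 2.24 ± 0.60 (adjusted p = 0.0127 and 0.0221), with *Dcn* at 34.2, 19.4 and 17.5 CPM under PBS and at 92.5, 57.3 and 84.3 CPM under LPS. The muscle list rose in the same libraries, and its part was not tested. In Adm+/- lungs *Fn1*, fibronectin, rose by 0.66 ± 0.15 (adjusted p = 0.00629), and *Thbs2* fell in both genotypes by 0.79 and 0.71. Of 10 receptors and uptake genes, *Mrc2*, which takes up cleaved collagen, fell in both (-1.03 ± 0.20 and -0.90 ± 0.20), the inhibitory receptor *Lair1* rose in WT (1.52 ± 0.42) and the integrin *Itga2* in Adm+/- lungs (0.70 ± 0.21).

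Of 9 collagen-degrading proteases and their inhibitors, 5 rose in WT and 6 in Adm+/- lungs and none fell, where 10.5% and 12.8% of all genes rose and 7.09% and 12.2% fell. *Mmp9*, the neutrophil gelatinase, lay at 5.94, 11.7 and 4.26 CPM in WT PBS and at 148, 88.2 and 143 CPM in WT LPS, and rose by 4.11 ± 0.39 and 3.92 ± 0.39 (adjusted p = 0.000112 and 7.68e-05). *Mmp8*, the neutrophil collagenase, rose by 3.86 ± 0.60 and 4.94 ± 0.66. A list of 12 neutrophil genes, which holds *Mmp8*, summed to 40.8 to 186 CPM in the PBS and to 1607 to 2966 CPM in the LPS libraries, and its part in these values was not tested. *Timp3*, an inhibitor held in the matrix, rose by 1.01 ± 0.16 and 1.34 ± 0.16 (adjusted p = 0.00186 and 0.000202). *Ctsk* and *Timp1* rose in both genotypes and *Mmp13* in Adm+/- lungs. They are named beyond the rule, after their values were seen.

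Genotype was compared last. Under PBS no collagen gene differed between Adm+/- and WT lungs by edgeR (2 had an unadjusted p below 0.05), and no gene of the 15885 passed at all (0%). *Col28a1* was the 1 member whose libraries did not overlap, being lower in Adm+/- lungs, where 4.99% of all genes did not overlap, 2.47% higher and 2.51% lower. The collagen median was -0.31, and -0.09 without WT PBS 5 and Adm+/- PBS 6. Under LPS, 1 of 43 passed, where 2.05% of all genes passed, 0.327% higher and 1.72% lower. This was *Col8a1*, at 1.94 to 2.85 CPM in Adm+/- LPS and 4.78 to 17.3 CPM in WT LPS, a change of -2.39 ± 0.45 (adjusted p = 0.0208). Without WT LPS 9 and 11, where 3 Adm+/- libraries are set against WT LPS 10 alone, no member passed and 0.659% of all genes did, *Col8a1* was at -1.003 (adjusted p = 0.732) and *Col17a1* turned from -2.59 to 0.29. The call was lost without WT LPS 11 alone (-2.22, adjusted p = 0.0758) or any 1 Adm+/- LPS library (-2.54 to -2.26, adjusted p = 0.0887 to 0.116). The libraries did not overlap for 3 members that were higher and 6 that were lower in Adm+/- LPS, where 24.6% of all genes did not overlap, 12.2% higher and 12.4% lower. Some of these were lower in every Adm+/- LPS than in every WT LPS library without passing, such as *Col5a3* (-1.91 ± 0.47, adjusted p = 0.0639), *Col6a6* (-2.15 ± 0.55, adjusted p = 0.0675) and *Col28a1* (-1.38 ± 0.33, adjusted p = 0.0572). With the GC trend removed these 3, *Col17a1* and *Col8a1* passed as lower in Adm+/- LPS and *Col6a4* as higher, where 3.76% of all genes passed. The 3 WT LPS libraries are also those with the high muscle list, and WT LPS 9 and 11, where *Col17a1* and *Col8a1* were highest, are those with the high squamous list, so that genotype and these lists cannot be told apart in this comparison. *Col4a1* and *Col4a2* were higher in each Adm+/- LPS than in each WT LPS library, by 0.28 ± 0.27 and 0.24 ± 0.28 (adjusted p = 0.766 and 0.833), which did not pass.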

How the data were processed

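Per the labels and the study's methods, RNA of whole lungs was sequenced from strand-marking, rRNA-depleted libraries, trimmed with Trim Galore, aligned to mm10 with HISAT2 and counted with featureCounts. The deposited values are raw counts per gene, not normalized. The annotation release and the strand setting of the counting are not given in the sources used here. Counts of protein-coding genes were filtered with filterByExpr, scaled with TMM factors and fitted with edgeR 4.0.16 (glmQLFit, glmQLFTest, R 4.3.3), with 1 coefficient per group, over 12 libraries. Calls needed a log2 change of more than 0.5 in size and an adjusted p under 0.05 (Benjamini-Hochberg over all tested genes). CPM uses TMM-scaled library sizes. Exon lengths and coordinates are from Gencode M21 and promoters from RefSeq (GRCm38.p6). Each library is 1 mouse. In a simulated LPS comparison of WT lungs over 15885 genes, 96.0% of genes changed by a log2 fold of 2 and 60% of those changed by 1 were recovered. Members, structural classes, pathway roles and marker lists were chosen with earlier results of these data known. Every collagen gene was named, with full statistics for those that passed in any comparison and for the 2 most abundant of each class; of pathway genes, the 2 with the smallest adjusted p per role, direction and genotype. Alternatives were size factors of DESeq2's kind, DESeq2 1.42.0, limma-voom 3.58.1 with and without a fold threshold, other filters, and fits without libraries. Removal of a lowess trend with GC content, and the fit without WT LPS 9 and 11, were chosen after seeing the data.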

Additional observations from a re-analysis of the deposited data

How the results depend on the processing

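The counts of collagen genes that passed depended on the fit. DESeq2 gave 7 lower in WT lungs, 3 lower in Adm+/- lungs and 7 lower in Adm+/- against WT under LPS, where it called 20.9%, 27.0% and 5.06% of all genes. limma-voom with a built-in fold threshold gave 0 in each of these and 0 higher in either genotype (3.41%, 7.17% and 0.497% of all genes). Fitting only the 6 libraries of a comparison gave 1 higher and 0 lower in WT, 6 lower in Adm+/- and 2 lower in Adm+/- against WT under LPS (7.39%, 29.2% and 1.56% of all genes). Without WT PBS 5 and Adm+/- PBS 6 there were 7 higher and 1 lower in WT, 5 higher and 2 lower in Adm+/- lungs, and 1 higher and 4 lower in Adm+/- against WT under LPS (15.3%, 24.4% and 3.4% of all genes). With the GC trend removed there were 5 higher and 2 lower in Adm+/- lungs, and 1 higher and 5 lower in Adm+/- against WT under LPS (27.2% and 3.76% of all genes). Without WT LPS 9 and 11 there were 0 higher and 0 lower in WT and 0 lower in Adm+/- against WT under LPS (4.67% and 0.659% of all genes), with WT LPS 10 alone in its group. Where no construction shows it, the cause was not tested.

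Without WT PBS 5 and Adm+/- PBS 6 the direction turned for 13 members in WT lungs, *Col4a1* (0.070), *Col4a2* (0.077), *Col4a6* (0.010), *Col6a1* (0.20), *Col6a2* (0.12), *Col6a4* (0.17), *Col9a1* (0.23), *Col9a3* (0.43), *Col11a1* (0.48), *Col11a2* (0.42), *Col15a1* (0.026), *Col18a1* (0.20) and *Col23a1* (0.16), for 4 in Adm+/- lungs, *Col4a4* (0.17), *Col5a1* (0.0041), *Col11a2* (0.14) and *Col15a1* (0.040), and for the ratio of *Col1a1* to *Col1a2* (0.0031). With the GC trend removed it turned for 5 in WT lungs, *Col6a1* (0.071), *Col6a4* (0.068), *Col11a2* (0.050), *Col18a1* (0.17) and *Col23a1* (0.030), for 3 in Adm+/- lungs, *Col2a1* (0.012), *Col5a3* (0.15) and *Col11a2* (0.31), and for the ratios of *Col1a1* to *Col1a2* (0.046) and *Col4a1* to *Col4a2* (-0.080, adjusted exact p = 0.0167). Without WT LPS 9 and 11 it turned for 3 in WT lungs, *Col6a4* (0.022), *Col17a1* (-0.21) and *Col18a1* (0.12), and for 0 in Adm+/- lungs. Other ratios changed their call: *Col5a1* to *Col5a2* passed with the GC trend removed (0.18), *Col8a1* to *Col8a2* no longer passed without WT PBS 5 and Adm+/- PBS 6 (1.64), and without WT LPS 9 and 11 *Col4a3* to *Col4a4* passed (0.066) while *Col6a1* to *Col6a2* (0.099) and *Col6a3* to *Col6a1* (-0.43) no longer did, in a design with fewer assignments.

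With 1 library left out, collagen calls ranged from 2 to 7 higher and 0 to 9 lower in WT, from 0 to 3 higher and 1 to 7 lower in Adm+/- lungs, from 0 to 1 lower for the difference between genotypes, and from 0 to 1 higher and 0 to 5 lower in Adm+/- against WT under LPS. Of the members that passed or were the 2 most abundant of their class, and *Col1a2*, these turned: *Col10a1* -0.22 to 0.018, *Col13a1* -0.095 to 0.31, *Col15a1* -0.28 to 0.031, *Col28a1* -0.052 to 0.18 and *Col4a2* -0.020 to 0.41 in Adm+/- lungs, and *Col15a1* -0.46 to 0.026, *Col18a1* -0.32 to 0.20, *Col23a1* -0.24 to 0.16, *Col4a1* -0.61 to 0.070, *Col4a2* -0.61 to 0.077, *Col6a1* -0.28 to 0.20 and *Col7a1* -0.0048 to 0.85 in WT lungs. The ratios ranged over 0.15 to 0.20 for *Col3a1* to *Col1a2*, 0.036 to 0.062 for *Col4a3* to *Col4a4*, -0.27 to -0.15 for *Col4a5* to *Col4a6*, 0.079 to 0.12 for *Col6a1* to *Col6a2*, -0.54 to -0.42 for *Col6a3* to *Col6a1*, 1.59 to 2.15 for *Col8a1* to *Col8a2*, -0.0091 to 0.056 for *Col5a1* to *Col5a2* and -0.19 to 0.86 for *Col9a1* to *Col9a3*. No paired analysis was possible because the labels give no litter or other link between mice of different groups. Members of a few CPM, such as *Col8a1*, rest on few counts.

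Counts over all genes moved as well. The 2791 genes that passed in WT lungs became 542 with the built-in fold threshold, 1152 with 6 libraries, 1443 without WT LPS 9 and 759 without WT LPS 9 and 11, and the 3968 in Adm+/- lungs became 1139 with the fold threshold. The 325 in Adm+/- against WT under LPS ranged from 79 (fold threshold) to 803 (DESeq2), with 81 to 573 when 1 library was left out, and the 23 for the difference between genotypes from 0 (fold threshold) to 168 (DESeq2), with 5 to 65 when 1 library was left out.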
